A study of Mus musculus with 8 samples.

Results

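The respiratory chain and ATP synthase genes carried by the nucleus were described across blood and lymphatic endothelial cells of a mouse melanoma and the pigmented tumor cells sorted with them. Members were chosen by symbol: all Nduf genes except the Ndufaf assembly factors and Ndufa4l2, the 4 Sdh genes, all Uqcr genes, the Cox4 to Cox8 genes and all Atp5 genes, if at least 1% of all cells had a UMI. Of the 28692 gene symbols in the count matrix, 84 matched and 80 passed. The 4 that did not pass were Cox7b2 and Cox8c, without a UMI in any cell, Cox6a2 with a UMI in 0.105% of the 7635 cells and Cox8b in 0.249%. Just inside the limit were Cox7a1 at 1.36% and Cox4i2 at 2.25%. By complex, the members were 36 genes of complex I, 4 of complex II, 8 of complex III, 14 of complex IV (Ndufa4 included), 15 of complex V and 3 associated genes (Atp5s, Atp5sl and Cox7a2l).

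Complexes I to IV pass electrons from NADH and succinate to oxygen in the inner mitochondrial membrane and, complex II excepted, pump protons; complex V, the ATP synthase, lets the protons flow back and makes ATP. Complex II is made from nuclear genes alone, whereas complexes I, III, IV and V each combine nuclear subunits with a few made from the mitochondrial genome. Several complex IV subunits exist as alternative isoforms used in muscle, lung, testis or under low oxygen. Endothelial cells are known for covering much of their ATP need by glycolysis.

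The tumor, MT-ret, comes from mice that carry the Ret oncogene under a metallothionein promoter; 10 C57BL/6N mice had received implants of its fragments at the ventral flank. FACS gave 10000 endothelial cells of blood vessels (BEC) and 10000 of lymphatic vessels (LEC), profiled with the 10x Chromium 3′ v2 kit. The labels list 4 libraries per sort, but the cell names gave only the sort, so each sort was 1 sample pooled over mice, no test between groups was possible, and differences have no replicate check. The groups used are BEC-sort cells that were not pigmented (3206 cells), LEC-sort cells that were not pigmented (4128), and pigmented cells, with 20 or more UMIs of Dct, Tyrp1, Pmel and Tyr together, which numbered 279 in the LEC sort and 22 in the BEC sort. Levels are in CPM (UMIs of a gene after every group is brought to one fixed total). Ranges in brackets are exact 95% intervals that cover counting error only.

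Total UMIs were 71304111 in the BEC sort and 59273049 in the LEC sort, with medians of 19312 UMIs per cell in BEC, 10594.5 in LEC, 27894 in pigmented cells of the LEC sort and 33532 in those of the BEC sort. The 12 BEC markers summed to 30626 CPM among BEC and 2810 among LEC, the 10 LEC markers to 288 and 29766 CPM. The 8 melanocytic genes, which include the 4 that define pigmented cells, summed to 26.7 CPM in BEC, 148 in LEC, 20537 in pigmented cells of the LEC sort and 19811 in those of the BEC sort. Pigmented cells of the LEC sort also carried UMIs of all 10 LEC markers (3053 CPM) and all 12 BEC markers (4117 CPM). The part of free RNA or of cells caught together in the levels below was not tested. The sorts shared 34 cell barcodes. The groups that were not pigmented kept some cells of clusters led by genes of other cell types: 2 BEC-sort and 93 LEC-sort cells of a melanocytic-like cluster, 5 and 44 of a platelet-like cluster and 36 and 10 of a stromal-like cluster.

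Together the 80 genes made up 25406 CPM in BEC (25369 to 25443), 28598 CPM in LEC (28552 to 28644), 41049 CPM in pigmented cells of the LEC sort (40907 to 41192) and 40776 CPM in those of the BEC sort (40349 to 41207). The endothelial groups thus lay within 1.13-fold of each other, while the pigmented cells of both sorts stood above both. The 13 protein genes of the mitochondrial genome followed another order: 34960 CPM in BEC, 33610 in LEC, 43048 in pigmented cells of the LEC sort and 39241 in those of the BEC sort. The ratio of nuclear to mitochondrial UMIs was therefore 0.727 in BEC, 0.851 in LEC, 0.954 in pigmented cells of the LEC sort and 1.04 in those of the BEC sort.

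The same order held cell by cell at equal depth. With every cell thinned to 5000 UMIs, the members took a median of 2.44% of the UMIs of a cell in BEC (5th to 95th percentile 1.52 to 3.36%), 2.82% in LEC (1.88 to 3.78%) and 3.72% in pigmented cells of the LEC sort (2.17 to 5.94%). In pigmented cells of the BEC sort it was 3.64% (2.21 to 5.12%). Without thinning the medians were 2.46%, 2.84%, 3.73% and 3.71%. Cells overlapped between the groups, and the spread over cells (SD 0.556 percentage points in BEC and 1.13 in pigmented cells of the LEC sort) was more than the 0.218 and 0.268 points that counting 5000 UMIs gives.

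**Figure D1:**
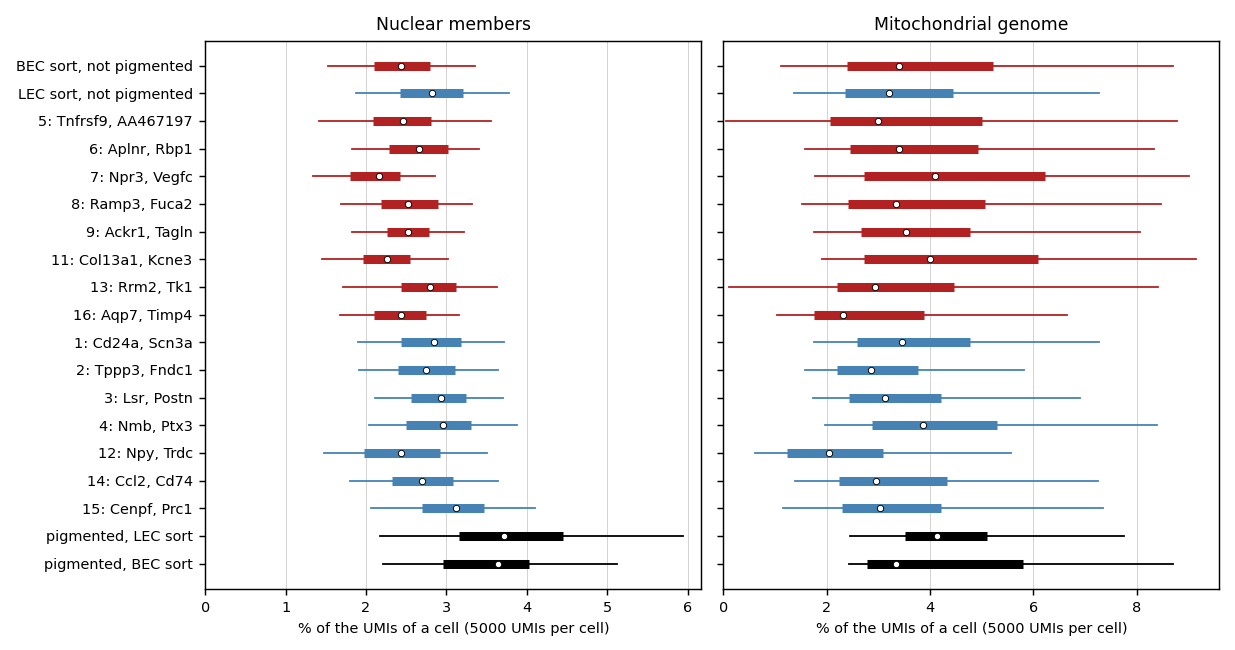
Share of the UMIs of each cell, thinned to 5000 UMIs, that came from the 80 nuclear members (left) and from the mitochondrial genome (right), for the sorts, the clusters described below (named by number and leading genes) and the pigmented cells. White points are medians over cells, thick bars the 25th to 75th percentile, thin lines the 5th to 95th. Pigmented cells have the highest member medians (3.72% and 3.64%), and cluster 12 has the lowest median for the mitochondrial genome (2.04%).

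Apart from 5 rare members, levels lay between 46.1 and 1100 CPM in BEC and between 45.7 and 1392 CPM in LEC. The highest were Cox4i1, the main form of complex IV subunit 4, at 1100 CPM in BEC, 1392 in LEC and 1996 in pigmented cells of the LEC sort, and Atp5b, the catalytic β subunit of ATP synthase, at 1056, 1072 and 1697 CPM. The other genes of the 12 highest were Atp5j, Uqcrb, Atp5l, Cox6c, Ndufa4, Cox6b1, Uqcrh, Atp5h, Cox8a and Cox5a, at 536 to 828 CPM in BEC and 591 to 920 CPM in LEC. In complex I the highest were Ndufc2 (428 CPM in BEC, 490 in LEC), Ndufa13 (335 and 450), Ndufa8 (455 and 293) and Ndufs5 (338 and 338). Ndufs1, the large iron-sulfur subunit at the entry of electrons, was the lowest of complex I at 46.1 and 45.7 CPM. The 5 rare members, each under 16 CPM in both sorts, were Cox4i2, Cox6b2, Cox7a1, Atp5s and Atp5sl. The counts are of the 3′ ends of transcripts and were not scaled by length, so an order of genes by CPM also holds how well each 3′ end is captured.

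**Figure D2:**
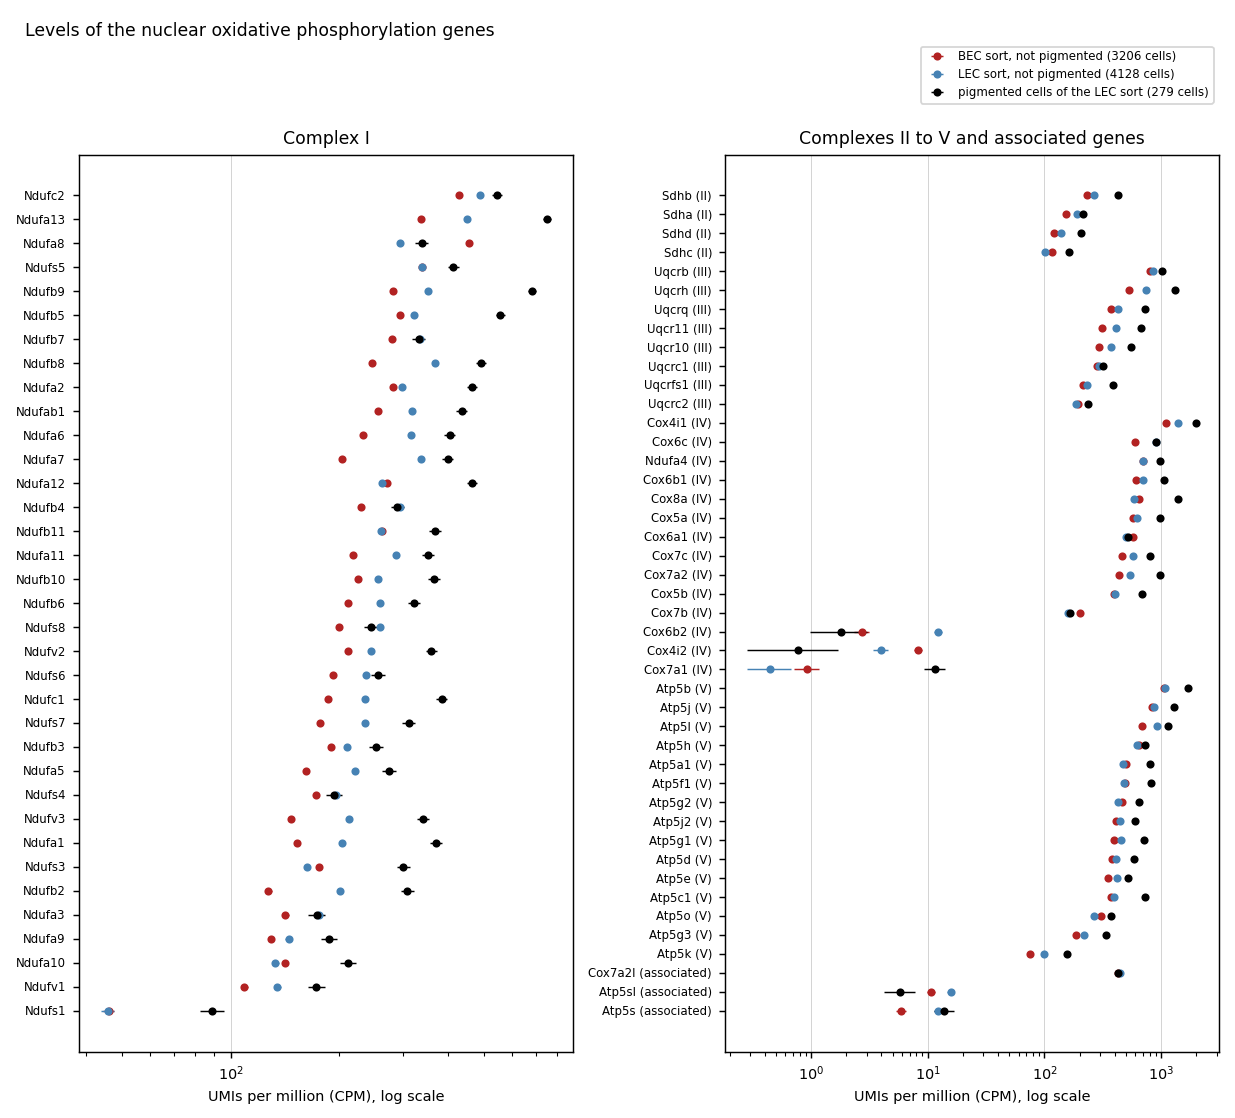
Level of the members, 1 left out, in CPM (log scale) in BEC (red), LEC (blue) and pigmented cells of the LEC sort (black), with complex I on the left and the other complexes on the right. Points are levels of summed UMIs and lines exact 95% Poisson intervals, which cover counting error only. Black points lie to the right for most members; Cox6b2, Cox4i2 and Cox7a1 lie far below the other complex IV genes.

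Between the endothelial sorts the members differed little. A gene was called different at 1.5-fold or more, if at 10 CPM or more in the higher group. Of 78 members at that level, 4 were higher in LEC and 1 was lower, 5.13% and 1.28%, against 19.8% and 14.4% of 8264 genes. The median log2 ratio of LEC over BEC was 0.19 over the members and 0.11 over all genes, and 60 members (76.9%) were higher in LEC by any amount, against 58.3% of all genes. By complex the median was 0.30 for complex I, 0.20 for complex II, 0.17 for complex III, 0.15 for complex IV and 0.08 for complex V. With pigmented cells kept in both sorts, 7 members were higher in LEC, against 20.2% of genes.

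The gene with the highest ratio was Cox6b2, the testis-type form of complex IV subunit 6B, which went from 2.71 CPM among BEC (2.34 to 3.12) up to 12.1 CPM among LEC (11.2 to 13.1), a ratio of 4.47 (3.80 to 5.29). It was read in few cells, 2.28% of BEC and 5.38% of LEC. Over clusters named for their own sort, which leave out cluster 9 (described below), BEC stood at 1.22 CPM and LEC at 12.8 CPM, and the log2 ratio was 3.38 in place of 2.16. Atp5s, known as coupling factor B, followed at 5.85 and 12.2 CPM, 2.08-fold (1.84 to 2.37). Both are rare transcripts. Among abundant members the called genes were the accessory complex I subunits Ndufa7, 203 CPM in BEC and 337 in LEC (1.66-fold, 1.63 to 1.70), and Ndufb2, 127 and 201 CPM (1.58-fold, 1.53 to 1.62). Cox6c, 599 and 896 CPM (interval of the ratio 1.48 to 1.52), and Ndufb8 at 1.49-fold (1.46 to 1.53) lay just under the limit.

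Ndufa8, an accessory complex I subunit of the intermembrane space, went the other way, with 455 CPM among BEC (450 to 460) but 293 CPM among LEC (288 to 298), so that LEC were 1.55-fold lower (1.52 to 1.58). Next lowest were Cox7b (log2 ratio -0.33), Atp5o (-0.20), Cox6a1 (-0.19) and Sdhc (-0.18), none of which was called. The call of Ndufa8, at a log2 ratio of -0.63, was close to the limit: the ratio was -0.54 over clusters named for their own sort and -0.58 with every cell of equal weight, both just short of a call.

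Other genes of the same organelle were read from lists, beside 19.8% of all genes called higher in LEC and 14.4% called lower. The mitochondrial genome held 2 called genes of 12, both lower in LEC, mt-Atp8 (15.6 CPM in BEC, 7.34 in LEC) and mt-Nd4l (57.3 and 36.9), and its list median was -0.20. Of 39 assembly factors 3 were higher (Cox17, a copper chaperone of complex IV, 53.4 and 163 CPM; Nubpl; Pet100) and 1 lower (Cox18), with a median of 0.15. The list of carriers and exchange proteins also held genes of other roles, among them Usmg5, Higd1a and Ndufa4l2. Of its 16 genes 5 were higher, namely Etfa and Etfb of the electron transfer flavoprotein, Usmg5, Higd1a (193 and 379 CPM) and Ndufa4l2 (17.9 and 57.5 CPM, 3.20-fold). The 36 stromal-like cells of the BEC sort held 926 of the 1264 Ndufa4l2 UMIs of BEC, and without the platelet-like and stromal-like clusters BEC stood at 4.79 CPM and LEC at 54.9 CPM (11.5-fold, 10.2 to 12.9). Of 20 citric acid cycle and pyruvate transport genes 2 were higher, Idh2 and Mpc2. Glycolysis was split, with 4 of 15 genes higher (Aldoa among them) and 4 lower (Pkm, 1278 and 606 CPM, among them).

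Pigmented cells, by contrast, were higher in members of all 5 complexes. Of 79 members at 10 CPM or more, 34 (43.0%) were higher in pigmented cells than in the other cells of the LEC sort and 2 (2.53%) were lower, against 18.9% and 27.3% of 8478 genes. The median log2 ratio was 0.51 over the members and -0.12 over all genes, and 71 members were higher by any amount (89.9%, against 42.9% of all genes). Called higher were 13 of 36 genes of complex I, 3 of 4 of complex II, 4 of 8 of complex III, 6 of 13 of complex IV and 8 of 15 of complex V. The medians were 0.41, 0.64, 0.63, 0.52 and 0.59 in that order. Without the melanocytic-like, platelet-like and stromal-like clusters among the other LEC-sort cells, 34 members were higher and 2 lower, with a median of 0.50. At 2-fold, 3 members were higher, against 12.2% of genes, and at a minimum of 50 CPM 0 were lower, against 24.1%.

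The 22 pigmented cells of the BEC sort were a separate set of cells. Against the other BEC-sort cells, 48 of 77 members were higher (62.3%) and 0 lower, where 27.8% and 28.9% of 8464 genes were called, with medians of 0.69 over members and 0.04 over all genes. All 34 genes called in the LEC sort were above the other cells in the BEC sort too, and 31 of them were called there. The same overlap was not counted over all genes, so it is not read as a trait of the members. No test was possible, since each sort is 1 sample.

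Cox7a1, the form of complex IV subunit 7A typical of heart, muscle and brown fat, had the largest ratio. It passed the limit of 1% of all cells (1.36%) only with the pigmented cells counted, and it reached 10 CPM only in them. Its place among the members and among the called genes therefore rests on the group where it is high. Its level was 0.923 CPM among BEC (0.712 to 1.18), 0.446 among LEC (0.283 to 0.670), 11.5 in pigmented cells of the LEC sort (9.22 to 14.1) and 16.4 in those of the BEC sort (8.98 to 27.6), where 57.1% of its 14 UMIs came from 1 cell. That is 25.7-fold over the other LEC-sort cells (16.1 to 42.6). Still, only 14.3% of pigmented cells in the LEC sort had a UMI of it (89 UMIs, at most 6.74% from 1 cell), and it made up 1.17% of the Cox7a1 and Cox7a2 UMIs there. The ubiquitous form Cox7a2 was higher as well, at 537 and 971 CPM (1.81-fold, 1.76 to 1.86).

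Cox8a, the ubiquitous form of complex IV subunit 8, was the abundant member with the largest ratio. It stood at 649 CPM in BEC (643 to 655), 591 in LEC (585 to 598), 1391 in pigmented cells of the LEC sort (1365 to 1418) and 1418 in those of the BEC sort (1339 to 1500). The ratio was 2.35-fold in the LEC sort (2.30 to 2.41) and 2.18-fold in the BEC sort (2.06 to 2.31). Within each sort, the counting intervals of the levels in pigmented and in other cells did not overlap. Cox8b, its muscle counterpart, was at 1.29 CPM in pigmented cells of the LEC sort, from 10 UMIs.

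In complex I high ratios were those of Ndufs1, 45.7 to 89.0 CPM (1.95-fold, 1.78 to 2.12), and Ndufb9, 351 to 682 CPM (1.94-fold, 1.89 to 2.01). Ndufs1 was not called in the BEC sort, at 50.5 CPM in pigmented cells against 46.1 CPM. In complex III Uqcrh, the hinge protein next to cytochrome c1, stood at 741 and 1328 CPM (1.79-fold, 1.75 to 1.83). In complex V the catalytic Atp5b (1.58-fold), the central stalk Atp5c1 (392 to 726 CPM, 1.85-fold, 1.80 to 1.91) and Atp5a1 (475 to 809 CPM, 1.70-fold) were all called. In complex II Sdhb, the iron-sulfur subunit, went from 266 to 429 CPM (1.61-fold), Sdhc was 1.60-fold and Sdhd 1.51-fold higher, and Sdha, the flavoprotein subunit, was not called at 189 and 214 CPM.

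Not every member was higher in pigmented cells. Cox6b2 was 12.1 CPM in the other LEC-sort cells and 1.81 CPM in pigmented cells, 6.72-fold lower (3.97 to 12.4), and Atp5sl was 15.8 and 5.80 CPM, 2.72-fold lower (2.02 to 3.76). In the BEC sort Cox6b2, at 2.71 and 3.52 CPM (3 UMIs in the pigmented cells), was under the 10 CPM that a call needs. Atp5sl was not called there, at 10.7 and 12.9 CPM. Ndufs8 (260 and 244 CPM), Cox7a2l, a factor of supercomplex assembly (443 and 427 CPM), Ndufb4 (294 and 289 CPM) and Ndufa3 (176 and 173 CPM) followed with ratios near 1. Cox6c and Cox6a1, both abundant, had ratios of 1.02 and 1.03.

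**Figure D3:**
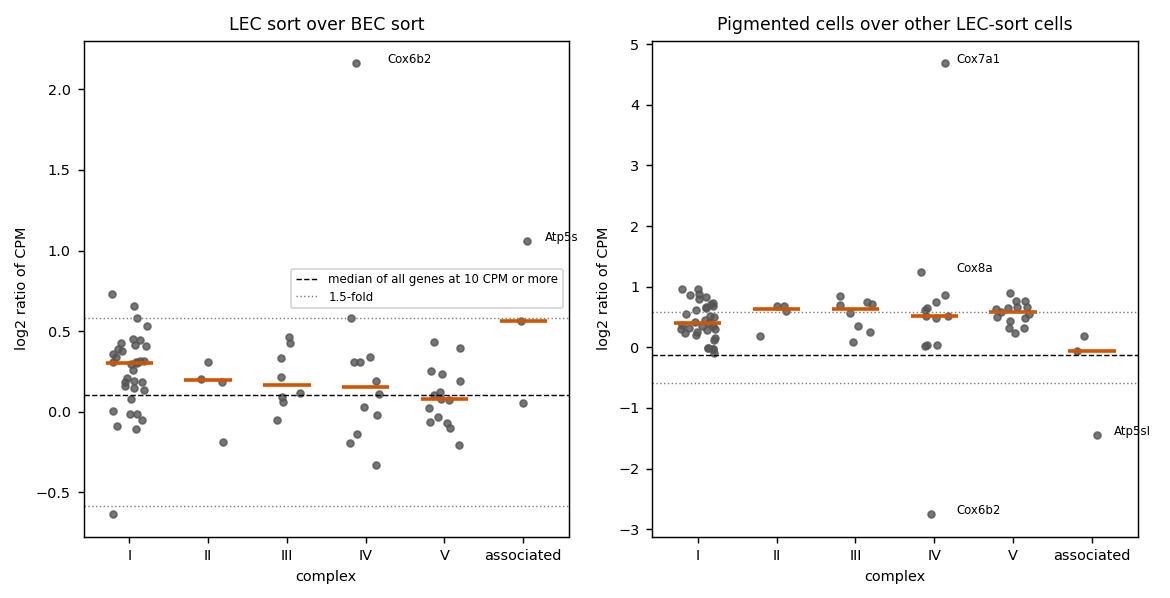
Log2 ratio of each member at 10 CPM or more in the higher group, by complex, for LEC over BEC (left) and pigmented over other LEC-sort cells (right). Points are genes, 1 left out, orange bars the median of all members of a complex, the dashed line the median of all genes and dotted lines 1.5-fold. On the left all complexes lie near the dashed line; on the right complexes I to V lie above it, with Cox7a1 at 4.68 and Cox6b2 at -2.75.

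Genes around the respiratory chain moved unequally in pigmented cells of the LEC sort, where 18.9% of all genes were called higher and 27.3% lower. Of the mitochondrial genome 5 of 12 genes were higher, mt-Nd1 (2578 to 4478 CPM), mt-Nd2, mt-Nd3, mt-Cytb and mt-Co2, while mt-Co1 was not called at 5930 and 5027 CPM; the list median was 0.40. On the list of carriers and exchange proteins 7 of 16 genes were higher and 1 lower. Among the higher were the ADP/ATP carriers Slc25a4 (914 to 1654 CPM) and Slc25a5 (826 to 1465 CPM). Of the citric acid cycle genes 6 of 20 were higher, among them Mdh2 (349 to 628 CPM), and 2 lower. Glycolysis had the highest list median at 1.48, with 14 of 16 genes higher (Pkm 606 to 2132 CPM, Ldha 888 to 2474 CPM, Aldoa 1130 to 2361 CPM).

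Assembly factors and the mitochondrial ribosome had medians closer to that of all genes: 4 of 39 assembly factors were higher and 3 lower (median -0.05), and 5 of 76 mitochondrial ribosomal genes were higher and 0 lower (median 0.06). In the BEC sort these lists had 13 of 42 higher and 8 lower (median 0.05) and 15 of 76 higher and 5 lower (median 0.26). There 27.8% of all genes were called higher and 28.9% lower. Among the regulators of mitochondrial genes, Ppargc1a, the coactivator PGC-1α, was 0.427 CPM in the other LEC-sort cells and 30.4 CPM in pigmented cells (71.3-fold). Its partner Esrra was 12.5 and 31.5 CPM (2.52-fold) and Sirt3 10.8 and 19.9 CPM, whereas Nrf1 (1.51-fold), Gabpb1 (2.22-fold) and Epas1 (5.29-fold) were lower. The cell cycle list was lower in pigmented cells of the LEC sort, with 6 of 15 genes called lower, and 4 of 15 were higher and 1 lower in those of the BEC sort.

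Cells of both sorts were clustered without the members, the mitochondrial genes and the pathway lists, so that the levels of members in a cluster had no part in drawing it. The 15 clusters with at least 100 cells of their main sort were described, 8 from BEC and 7 from LEC. Clusters 9, 12 and 14 carried the markers of their sort but were left unnamed because a marker of another type (Tagln, Cd68 or Dcn) was among the 10 leading genes. Smaller clusters were platelet-like (49 cells) and stromal-like (46 cells), and most pigmented cells lay in a melanocytic-like cluster.

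Members varied less over endothelial clusters than genes at large. The highest cluster exceeded the lowest by a median of 1.36-fold over 77 members in BEC and 1.41-fold over 79 members in LEC, against 1.99-fold over 8691 genes and 2.1-fold over 8983 genes. A range of 2-fold or more was found for 2 members in BEC and 7 in LEC, but for 49.2% and 54.2% of genes. The genes at large include those from which the clusters were drawn, whereas the members were left out of that step. A wider range for genes at large is thus partly built in, as it is for the shares of called genes given with the clusters below. The parts of this and of the members' abundance were not tested. Summed member levels ran from 22203 to 28348 CPM in BEC (1.28-fold) and from 24736 to 31227 CPM in LEC (1.26-fold), so the highest cluster of each sort was below the 41049 CPM of the pigmented cells.

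In both sorts the highest cluster was that of dividing cells. Cluster 13 of the BEC sort, led by Rrm2, Tk1 and Plk1, had 28348 CPM against 25025 CPM in other BEC endothelium (ratio 1.13, 1.13 to 1.14), and cluster 15 of the LEC sort, led by Cenpf, Prc1 and Cdc20, 31227 against 28418 CPM (1.10, 1.09 to 1.11). They held the highest level of 38 of 77 and 39 of 79 members, and the same count was not made over all genes. The complex with the highest ratio was complex V in cluster 13 (8410 against 6969 CPM) and complex II in cluster 15 (829 against 685 CPM). Few single genes passed 1.5-fold: 1 of 76 members in cluster 13 and 2 of 78 in cluster 15, where 14% and 14.5% of genes were called higher, and 0 were lower, where 13.8% and 14.5% of genes were. The mitochondrial genome was not higher in either, at 30665 against 35569 CPM and 31704 against 33425 CPM, and the mitochondrial ribosome was (8699 against 7033 CPM and 8576 against 7333 CPM). Cells of these clusters were deep, with medians of 29214 and 18604 UMIs.

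The lowest BEC clusters paired low members with a high mitochondrial genome. Cluster 7, led by Npr3, Vegfc and Slc45a4 with Esm1 among its 10 leading genes, had 22203 CPM of members against 25928 CPM (ratio 0.856, 0.853 to 0.860) and 40009 CPM of the mitochondrial genome against 34191 CPM (1.17, 1.17 to 1.17). It held the lowest level of 41 of 77 members (not counted over all genes), with the members' median at -0.22 and that of all genes at -0.03. Of 76 members 0 were called higher and 1 lower, Ndufa8, at 312 CPM against 480 CPM; 5.9% and 7.96% of genes were called. Cluster 11, led by Col13a1 and Kcne3, was alike in direction, with 23409 CPM of members and 39542 CPM of the mitochondrial genome. Cytosolic ribosomal genes were low in both (80968 and 87688 CPM, against 109901 CPM in BEC as a whole). Ndufa8 reached its highest level, 643 CPM, in cluster 9, led by Ackr1, Tagln and Sele, of which Ackr1 and Sele are known from venules.

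In the LEC sort, cluster 12 stood apart. It held 287 LEC-sort cells, led by Npy, Trdc, Nipal1, Pgf, Hk2, Mpp6 and Ndufa4l2. Genes of the glycolysis list summed to 16053 CPM there against 3673 CPM in other LEC endothelium (4.37-fold), and those of the hypoxia list to 10000.2 against 1408 CPM (7.10-fold). Members were at 24736 CPM against 28927 CPM (ratio 0.855, 0.849 to 0.861) and the mitochondrial genome at 22141 against 34238 CPM (0.647, 0.642 to 0.651). Of 79 members 10 (against 27.5% of genes) were lower and 2 (against 13.2%) higher, and the median was -0.31 with all genes at -0.18. The cluster was the lowest for 52 of 79 members, and the share of all genes for which it was the lowest was not counted. Cytosolic ribosomal genes were high in it (143224 against 100876 CPM). At a clustering resolution of 0.5, the cluster that overlapped most with cluster 12 was wider (971 cells). Of the cells in either of these 2 clusters, a fraction of 0.295 lay in both. The ratios of the wider cluster were 0.979 for members and 1.03 for the mitochondrial genome.

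The levels in cluster 12 were uneven between complexes and genes. Complex II was lowest in ratio (0.679, 0.647 to 0.712), with Sdhb at 147 against 276 CPM and Sdha at 127 against 195 CPM. Complex III as a whole was nearly level (0.948, 0.931 to 0.966), yet its core subunit Uqcrc1 was 148 against 310 CPM, and Uqcrh was 927 against 720 CPM. Ndufs8, a core iron-sulfur subunit of complex I, was 112 CPM (102 to 123) against 273 CPM. Cox4i1 was 1227 against 1402 CPM, and Ndufv3 was called higher at 311 against 202 CPM (1.54-fold, 1.45 to 1.64).

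The balance of 2 isoform pairs was shifted in the same cells. Ndufa4, a subunit of complex IV once assigned to complex I, was 317 CPM in cluster 12 (299 to 335) against 731 CPM, while Ndufa4l2, its counterpart induced by low oxygen and not a member, was 427 CPM (407 to 448) against 25.5 CPM. Ndufa4l2 thus made up 57.4% of the UMIs of the pair (55.6 to 59.3%), 13.7% in cluster 4 and 0.269 to 3.30% in the other 13 clusters. Cox4i2, the low-oxygen and lung form of subunit 4, was 17.7 CPM (13.7 to 22.5) against 1.64 CPM, 10.8-fold higher (7.62 to 15.1), and 1.42% of the UMIs of its pair, where the other clusters had 0 to 0.543%. In pigmented cells of the LEC sort, as in cluster 12, glycolysis and hypoxia genes were high. Of 14 genes of the hypoxia list 9 were higher than in the other LEC-sort cells and 1 was lower, against 18.9% and 27.3% of all genes. The list median was 0.95 and the summed level 1.85-fold. In the BEC sort 11 of the 14 were higher and 3 lower, against 27.8% and 28.9% of all genes, and the summed level was 3.15-fold. Pigmented cells of the LEC sort were nevertheless low in both isoforms: Ndufa4l2 was 0.903 CPM, or 0.0913% of its pair, and Cox4i2 was 0.774 CPM from 6 UMIs, 5 of them in 1 cell.

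**Figure D4:**
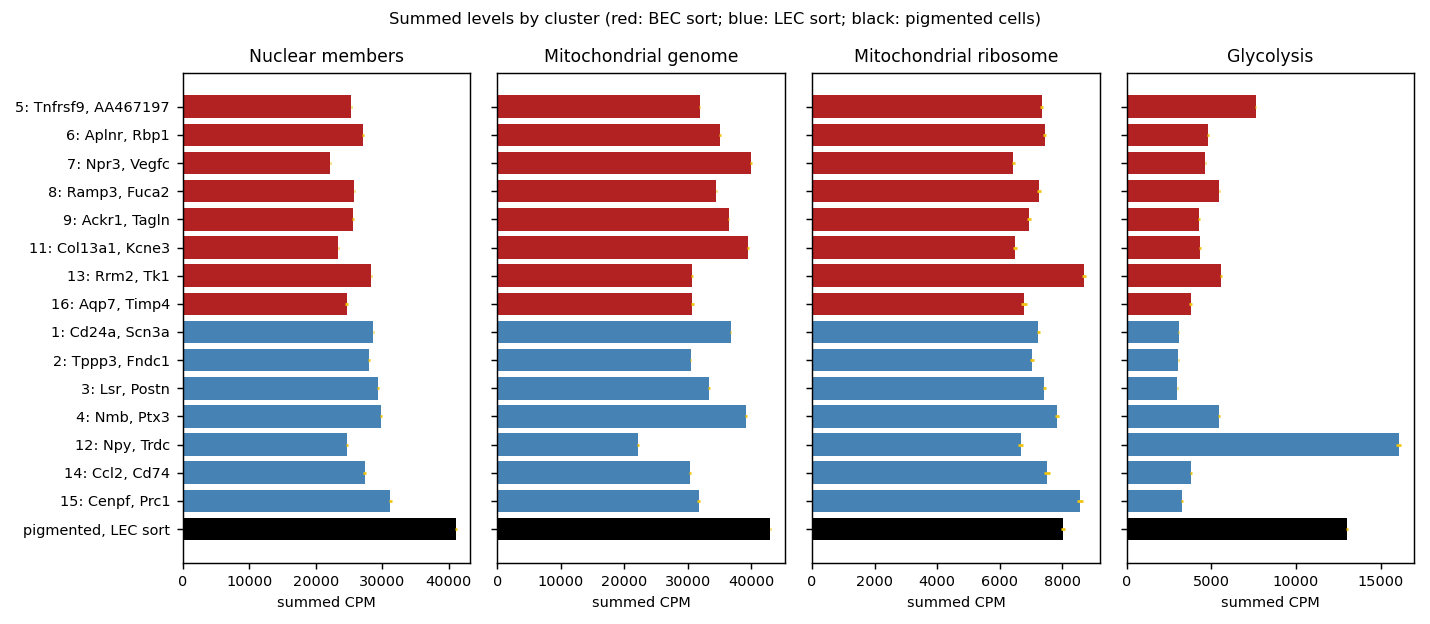
Summed level in CPM of the 80 members, the mitochondrial genome, the mitochondrial ribosome and glycolysis in BEC clusters (red), LEC clusters (blue) and pigmented cells of the LEC sort (black); yellow lines are exact 95% Poisson intervals. Member levels differ little over endothelial clusters and are highest in pigmented cells, while glycolysis stands out in cluster 12 (16053 CPM) and pigmented cells (13009 CPM).

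Outside the endothelium Cox4i2 was highest in the stromal-like cluster, led by Meg3, Col3a1 and Rgs5, at 505 CPM (455 to 558), where Ndufa4l2 was 1223 CPM. Its 36 BEC-sort cells held 382 of the 581 Cox4i2 UMIs of BEC. Over all cells that were not pigmented the level was 8.25 CPM among BEC and 3.94 CPM among LEC, with 7 mural markers at 154 and 44.4 CPM. Without the platelet-like and stromal-like clusters the log2 ratio of LEC over BEC went from -1.07 to -0.022 (2.86 CPM in BEC, 2.82 in LEC), and without the melanocytic-like cluster as well it was 0.0057. No direction between the endothelial sorts is therefore given for Cox4i2.

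Cox6b2 followed another division. It made up 0.0311 to 0.666% of Cox6b1 and Cox6b2 UMIs in 7 BEC clusters and 1.76% (1.40 to 2.17%) in the eighth, cluster 9, where its level was 10.6 CPM against 1.35 CPM in other BEC endothelium (7.88-fold, 5.74 to 10.8). In LEC clusters it was 0.829% in cluster 12 and 1.23 to 3.17% in the others, the highest being the dividing cluster 15 (23.6 CPM). Cluster 9 thus lay within the range of the LEC clusters. Outside the endothelium, the 36 stromal-like cells of the BEC sort had Cox6b2 at 27.7 CPM (17.2 to 42.4), from 21 UMIs. The 3 genes for the c ring of ATP synthase shifted modestly: Atp5g1, Atp5g2 and Atp5g3 took 37.9, 44.2 and 17.8% in BEC, 41.1, 39.0 and 19.8% in LEC and 42.2, 37.9 and 19.9% in pigmented cells of the LEC sort. Atp5g2 was above Atp5g1 in all 8 BEC clusters but in 2 of 7 LEC clusters (12 and 15), and its share ran from 36.1% in cluster 4 (35.1 to 37.1%) to 46.7% in cluster 13 (45.8 to 47.7%). Cox5a took 59.3, 60.6 and 58.9% of Cox5a and Cox5b, and Cox6a1 took 99.9% or more of Cox6a1 and Cox6a2 in these groups.

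**Figure D5:**
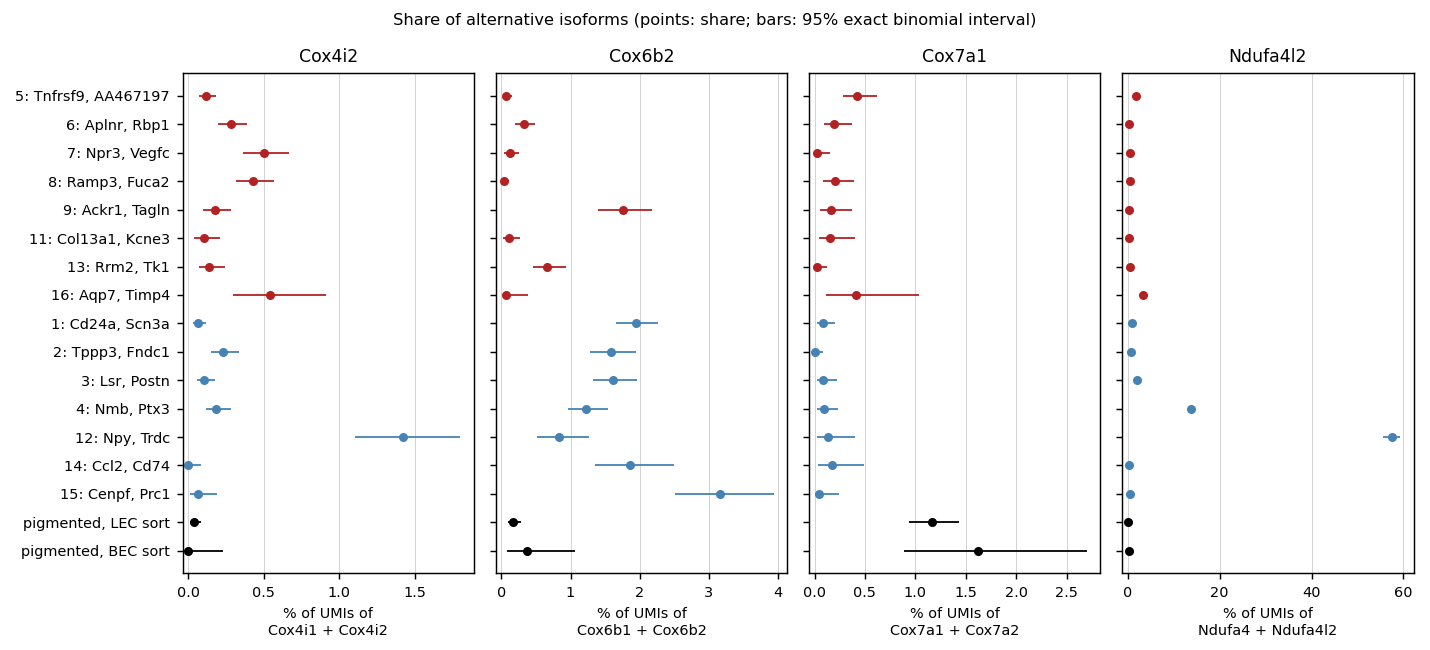
Share of an alternative isoform in the UMIs of its pair for Cox4i2, Cox6b2, Cox7a1 and Ndufa4l2, in endothelial clusters of the BEC sort (red) and LEC sort (blue) and in pigmented cells (black). Points are shares and lines exact 95% binomial intervals. Cox4i2 (1.42%) and Ndufa4l2 (57.4%) peak in cluster 12, Cox7a1 in pigmented cells (1.17% and 1.62%), and Cox6b2 in the LEC clusters and BEC cluster 9 (1.76%).

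Across the 15 clusters, summed members went with the citric acid cycle (Pearson r 0.88, Spearman rho 0.88), assembly factors (0.84 and 0.86) and the mitochondrial ribosome (0.81 and 0.81). With the mitochondrial genome the correlation was -0.11 and -0.15 over all clusters, -0.68 over the 8 BEC clusters and 0.74 over the 7 LEC clusters. These are descriptions over clusters that share libraries, depth and the total to which each is scaled, and the LEC value contains cluster 12.

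A small set of endothelial cells had almost no mitochondrial UMIs. In the 135 BEC and 84 LEC endothelial cells under 0.5% the mitochondrial genome was at 706 and 883 CPM, and members were at 32581 and 34243 CPM, against 25244 and 28530 CPM in the cells at or above 0.5%. Cytosolic ribosomal genes were high in them too (139819 against 109085 CPM in BEC), and their median UMI counts were low (9665 against 20014.5 in BEC). They were not spread evenly: 61 of the BEC cells lay in cluster 5, led by Tnfrsf9, and 33 of the LEC cells made up 78.6% of cluster 19, which has 42 cells and was too small to be described. Outside cluster 5 members were at 31828 CPM in such BEC cells against 25330 CPM, and outside cluster 19 at 32674 CPM in such LEC cells against 28524 CPM.

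Promoters of members were read from a set of promoter windows of RefSeq genes (GRCm38.p6), 250 bases before to 50 after the start. This set held 68 of the 80 members under these names or synonyms. The core GCATGCG of the NRF1 palindrome was found in 11 of 68 (16.2%) against 4.01% of 27025 genes, and the core ATGGCGG of the YY1 element in 11 (16.2%) against 4.69%. The ETS element CCGGAAG, to which GABP binds, was found in 16 (23.5%) against 9.93%. The E-box CACGTG was in 7 (10.3%) against 8.09%, and the hypoxia core ACGTG, which the E-box contains, in 18 (26.5%) against 21.8%. Both strands were searched, and a match is a description only. The Cox7a and Cox6b pairs are printed because 1 gene of each was restricted in these cells, followed by Uqcrh, which has the ETS element, and Cox6a1, which has the NRF1 core on both strands; capitals mark these matches. Each sequence runs 5′ to 3′ on the strand of its gene and ends before the gene's start in both RefSeq and GENCODE M21.
Cox7a1 (chr7:30183921-30184143, plus strand): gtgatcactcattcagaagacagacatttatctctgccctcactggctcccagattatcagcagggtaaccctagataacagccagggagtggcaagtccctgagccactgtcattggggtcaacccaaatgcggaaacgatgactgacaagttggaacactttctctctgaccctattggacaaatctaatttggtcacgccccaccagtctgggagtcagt
Cox7a2 (chr9:79759879-79760103, minus strand): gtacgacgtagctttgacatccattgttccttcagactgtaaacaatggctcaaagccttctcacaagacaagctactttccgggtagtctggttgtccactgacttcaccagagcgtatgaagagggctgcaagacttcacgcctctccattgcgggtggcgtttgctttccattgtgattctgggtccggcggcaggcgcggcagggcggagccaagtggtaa
Cox6b1 (chr7:30626152-30626364, minus strand): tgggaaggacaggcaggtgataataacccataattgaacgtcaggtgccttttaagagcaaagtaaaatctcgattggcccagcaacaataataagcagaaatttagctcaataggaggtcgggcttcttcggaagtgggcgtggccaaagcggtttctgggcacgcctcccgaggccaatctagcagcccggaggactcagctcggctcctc
Cox6b2 (chr7:4753095-4753344, minus strand): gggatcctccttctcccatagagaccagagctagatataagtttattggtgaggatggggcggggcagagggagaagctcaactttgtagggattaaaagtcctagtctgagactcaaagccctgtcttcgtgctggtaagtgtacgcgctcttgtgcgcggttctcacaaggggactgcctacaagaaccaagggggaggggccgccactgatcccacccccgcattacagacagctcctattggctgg
Uqcrh (chr4:116075072-116075320, minus strand): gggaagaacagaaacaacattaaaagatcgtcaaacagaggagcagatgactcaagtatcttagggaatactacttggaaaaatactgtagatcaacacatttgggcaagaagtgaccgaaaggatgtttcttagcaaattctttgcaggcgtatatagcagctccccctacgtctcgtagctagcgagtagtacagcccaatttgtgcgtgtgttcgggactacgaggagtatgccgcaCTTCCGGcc
Cox6a1 (chr5:115348982-115349208, minus strand): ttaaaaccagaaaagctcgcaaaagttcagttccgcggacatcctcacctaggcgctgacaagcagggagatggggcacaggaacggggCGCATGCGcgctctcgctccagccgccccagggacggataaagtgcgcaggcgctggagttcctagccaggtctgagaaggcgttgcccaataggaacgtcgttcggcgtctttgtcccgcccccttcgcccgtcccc
None of the 5 motifs was in the printed stretches of the Cox7a and Cox6b pairs. In the longer windows counted above, Cox7a1 had the hypoxia core and Cox6b1 the ETS element, both outside the stretches printed. In the printed stretches, which differ in length, Cox7a1 held 3 CG dinucleotides in 223 bases and Cox7a2 held 12 in 225. Cox6b2 held 8 in 250 bases and Cox6b1 held 10 in 213. In GENCODE M21 Cox7a1 spans chr7:30184144-30186078 and Cox6b2 chr7:4751792-4753094, both protein-coding, and Cox8a spans chr19:7215153-7217616, Ndufa8 chr2:36036326-36049406 and Cox4i2 chr2:152754173-152765037.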

How the data were processed

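The authors deposited raw UMI counts as 1 matrix (28692 symbols, 7635 cells). Cell Ranger 2.1.1 and mm10 are named in the submitters' processing notes, and how cells were filtered is not given in those sources. All 7635 cells were used, 0 columns of values were left out, and no doublets were removed. Because cell names carry no library, each sort was 1 sample and no test was run. The members and lists were chosen with earlier results of these data known.

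Counts were summed per group and scaled to CPM. Levels have exact Poisson intervals, ratios exact conditional binomial intervals and shares exact Clopper-Pearson intervals, all at 95% and for counting error only. At 3 UMIs a level was 0.0426 CPM in BEC, 0.0582 in LEC, 0.387 in pigmented cells of the LEC sort and 3.52 in those of the BEC sort. For clustering 413 genes (members, mitochondrial genes and pathway lists) were left out; after scaling to 10000 UMIs a cell and a log transform, 2000 variable genes were reduced to 30 principal components, and a graph over 15 neighbours was partitioned by Leiden at resolution 1 (Python 3.11.15, scipy 1.17.1, pandas 2.3.3, scanpy 1.11.5, numpy 2.4.6, scikit-learn 1.9.0, matplotlib 3.10.9, python-igraph 0.11.9). Leading genes had 50 CPM or more, a UMI in 25% of cells and the largest ratio to all other cells after adding 1 CPM. Naming a cluster needed 3 markers of a type. Named members were the 12 highest, the 6 highest and 6 lowest ratios of each comparison, the isoform groups, the 6 with the largest range over clusters and the 4 highest of each complex; named genes of other lists were their 3 highest and, where 6 or fewer, those called. A gene that this rule names is not reported here. Other genes named were chosen after their values were seen. The steps were also run on simulated counts that held counting error only, without variation between mice or libraries. Promoters were matched through RefSeq names and synonyms, motif cores were chosen after longer forms had been searched, and gene positions came from GENCODE M21.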

Additional observations from a re-analysis of the deposited data

How the results depend on the processing

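Of the main values under the alternatives, 59 moved little, 34 moved and 1 reversed; of values of single genes 157 moved little, 44 moved and 1 reversed. The median log2 ratio of LEC over BEC was 0.12 with size factors, 0.23 with every cell of equal weight, 0.27 over all cells of each sort and 0.22 over clusters named for their own sort. Members higher in LEC were 2 of 74 at a minimum of 50 CPM (against 16% of genes), 23 of 78 at a limit of 0.32 on the log2 scale (33.2%), 2 at 2-fold (11.2%), 7 over all cells (20.2%) and 7 over own-type clusters (22%). Members lower were 3 of 80 with no minimum (against 22.2%), 2 of 78 at that limit (21.8%), 0 at 2-fold (9%) and 0 over own-type clusters (15.2%). The median for pigmented cells over other LEC-sort cells was 0.59 with size factors, 0.45 with equal weight and 0.47 with pigmented cells taken from 10 UMIs on; 53 of 79 members were higher at a limit of 0.32 on the log2 scale (against 26.5% of genes) and 3 at 2-fold (against 12.2%), so that at 2-fold their share was below that of genes at large, and 0 of 75 were lower at a minimum of 50 CPM (against 24.1%). Summed levels with equal weight and after thinning (chosen after seeing the data) were 24601 and 24570 CPM in BEC, 28231 and 28256 in LEC and 38993 and 38758 in pigmented cells of the LEC sort. The highest BEC cluster exceeded the lowest by 1.18-fold at resolution 0.5, 1.21-fold with another seed, 1.21-fold with all genes kept and 1.30-fold with equal weight, and by 1.11-fold in LEC at resolution 0.5. In each other clustering the cluster that overlapped most with cluster 12 was compared. Its ratio at resolution 0.5 was 0.979 for members and 1.03, reversed, for the mitochondrial genome. The ratio for the mitochondrial genome was 0.654 at resolution 2, 0.606 with all genes kept and 0.672 with equal weight. The Cox4i2 log2 ratio of LEC over BEC was -0.022 without the platelet-like and stromal-like clusters and reversed to 0.00574 without the melanocytic-like cluster too (both chosen after seeing the data; the stromal-like cluster holds most of its BEC UMIs). The Cox6b2 log2 ratio was 3.38 over own-type clusters, which leave out cluster 9. The causes of the other changes were not tested.

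No paired analysis was possible because the cell names carry the sort and no library number, and no library was left out for the same reason. Depth limits the rare members: 1 UMI is 0.129 CPM in pigmented cells of the LEC sort and 1.17 CPM in those of the BEC sort. Intervals leave out the variation between mice and libraries.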
